A study of Mus musculus with 3 samples.

Results

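Spots of the amygdala and cortical subplate (AMY, deposited under the region label CTXsp) were examined in 3 coronal hemisphere sections of mouse brain. All spots carrying that label were taken, 523 of the 8549 spots in the deposited table. The CON section had 169 AMY spots, RES had 155 and SUS had 199. The sections came from male C57BL/6J mice of 8 weeks, with no transgene named in the labels. The CON mouse was the undefeated control. The RES and SUS mice went through chronic social defeat stress (CSDS) for 10 days, in which a mouse is attacked each day by a larger CD-1 aggressor and then housed beside it. A mouse whose social interaction ratio was above 1 was called resilient (RES), and one below 1 susceptible (SUS). Brains were collected 1.5 h after the last exposure and cut at 10 μm. Each condition is represented by 1 section, so there was no replicate error, no test between conditions was made, and condition, animal and section cannot be told apart.

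In the Allen atlas the cortical subplate holds the lateral, basolateral and basomedial amygdalar nuclei, the endopiriform nucleus and the claustrum. Their principal neurons are mostly glutamatergic, and the basolateral nuclei are known for linking sensory events to threat and reward. The central and medial amygdalar nuclei belong to the cerebral nuclei (CNU) in that atlas, and the piriform cortex beside the amygdala belongs to the olfactory areas (OLF). The piriform cortex is layered, with a superficial fibre layer over a dense layer of cell bodies, whereas the amygdalar nuclei have no such layers.

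Gene expression was captured on 10x Genomics Visium slides, whose capture spots form a hexagonal grid. Each spot collects mRNA from the tissue lying on it, often several cells of different types. Captured molecules are counted by their unique molecular identifiers (UMIs). The deposited values of a spot are the UMI total, how many genes had a UMI, and what percentage of UMIs fell on 3 classes of genes: mitochondrial genes, those for ribosomal proteins, and those of red blood cells. Region labels were given by the study from the stained image, the atlas and marker genes. Counts per gene were not analysed here, so the label could not be checked against amygdalar markers such as Lypd1. The AMY spots held 2229353 of 37536349 UMIs in the CON section. They held 1307873 of 31196847 in RES, and 1640026 of 34979160 in SUS. Intervals at the 95% level follow each median (from order statistics) and each share (exact, by Clopper-Pearson). Those of medians cover the spread over spots within a section. All of them treat spots as independent and say nothing of the spread between mice.

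The label marked 1 connected patch in every section, as the map of spots shows. Counted from each AMY spot to each of its listed neighbours, with a pair of AMY spots counted from both ends, 89.2% of contacts led to another AMY spot in CON. The share was 88.5% in RES and 89.9% in SUS. All 6 neighbours were AMY for 117, 99 and 136 spots, here called interior spots. The patch bordered CNU on its medial and dorsal side, with 23, 22 and 23 AMY spots touching a CNU spot. It bordered OLF on its lateral and ventral side, with 24, 23 and 32 AMY spots touching an OLF spot. Contacts with the entorhinal area (5, 7 and 5 AMY spots) and the Isocortex (4, 2 and 1) were few, and no other region was touched. AMY spots made up 5.87% (5.04 to 6.79) of the listed spots in CON, 5.48% (4.67 to 6.38) in RES and 7.01% (6.10 to 8.01) in SUS. These intervals treat spots as independent, whereas the label marks 1 patch, so they do not measure the spread of its area. How much of the amygdala a section contains also depends on where it was cut.

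**Figure D1:**
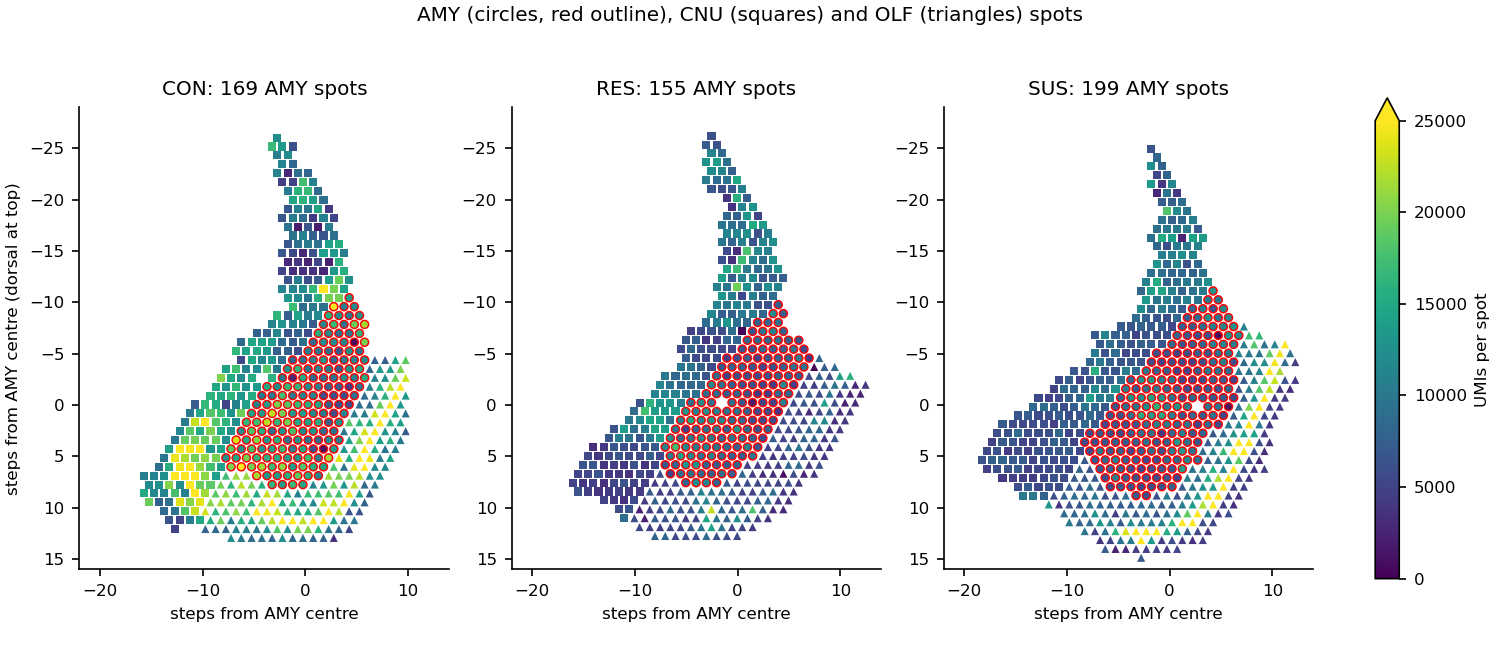
Positions of AMY (circles with red outline), CNU (squares) and OLF (triangles) spots by section, in grid steps from the centre of the AMY spots with dorsal at the top; colour gives UMIs per spot. AMY formed 1 patch of 169, 155 and 199 spots between CNU and OLF, and its spots were darker (fewer UMIs) in RES and SUS than in CON.

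AMY spots of the RES and SUS sections held fewer UMIs than those of the CON section. In CON the lowest AMY spot had 352 UMIs, the median was 12930 (12049 to 13718) and the highest spot had 30132. In RES the values were 1741, 8159 (7862 to 8635) and 17222. In SUS they were 655, 7471 (7216 to 8264) and 15801. The ranges of single spots overlapped, but the interquartile range of CON lay above both others. CON had quartiles of 10131 and 15764 UMIs, RES of 6764.5 and 9686, and SUS of 6458 and 9951.5. The ratio of medians was 0.631 (0.573 to 0.717) for RES to CON and 0.578 (0.526 to 0.686) for SUS to CON. A RES spot exceeded a CON spot in 16.4% of all pairs of spots, and a SUS spot did so in 15.9%. RES and SUS were close to each other, with a ratio for SUS to RES of 0.916 whose interval (0.836 to 1.05) included 1. Fewer cells under a spot, less RNA per cell and how each section was captured and sequenced cannot be told apart in such data.

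AMY differed more between the sections than the median spot did. The AMY median was 1.001 times the median of all spots in CON, 0.811 times in RES and 0.682 times in SUS. In CON 50.3% of the AMY spots lay above the section median, against 22.6% in RES and 13.6% in SUS. After division by the section median the RES to CON ratio was 0.810. Neighbouring regions had low ratios too. Among the 8 larger regions OLF had a lower ratio for SUS to CON than AMY, at 0.568, and CNU followed at 0.604. The label TEP, for the temporal association, entorhinal and perirhinal areas, had a ratio of 0.605, whereas the primary somatosensory area had 0.988 and CA1 0.9996. The thalamus at 1.13 (1.06 to 1.20) and the fiber tracts at 1.51 (1.30 to 1.75) lay above 1. For RES to CON the other 7 regions ran from 0.354 in OLF to 0.952 in the fiber tracts.

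Genes detected per AMY spot were 4803 (4633 to 4959) at the median in CON, 3664 (3557 to 3753) in RES and 3496 (3424 to 3724) in SUS. The ratios were 0.763 (0.717 to 0.810) for RES to CON, 0.728 (0.690 to 0.804) for SUS to CON and 0.954 (0.912 to 1.05) for SUS to RES. Detected genes increase with UMIs, so spots were also compared at like depth. Among AMY spots of 5000 to 10000 UMIs the median was 3868.5 genes in CON (36 spots), 3562.5 in RES (110 spots) and 3381 in SUS (145 spots). Inside that window, however, the sections still differed in depth, with median UMIs of 8718, 7875 and 7059. A curve of genes on UMIs, quadratic on the log scale and set on all 8549 spots, removed that difference. AMY spots lay 2.92% (2.53 to 3.25) above the curve in CON, 2.03% (1.63 to 2.35) in RES and 3.39% (3.07 to 3.64) in SUS. The neighbouring regions lay above it by like amounts, so the offset was not particular to AMY. In CON, RES and SUS it was 2.46, 2.98 and 2.50% in OLF, and 2.16, 2.57 and 3.67% in CNU. On this scale the AMY ratio was 0.991 (0.984 to 0.998) for RES to CON and 1.005 (0.998 to 1.01) for SUS to CON. At equal UMIs the AMY spots of the 3 sections therefore detected numbers of genes within a few percent of each other, and the fewer genes of RES and SUS went with their fewer UMIs.

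**Figure D2:**
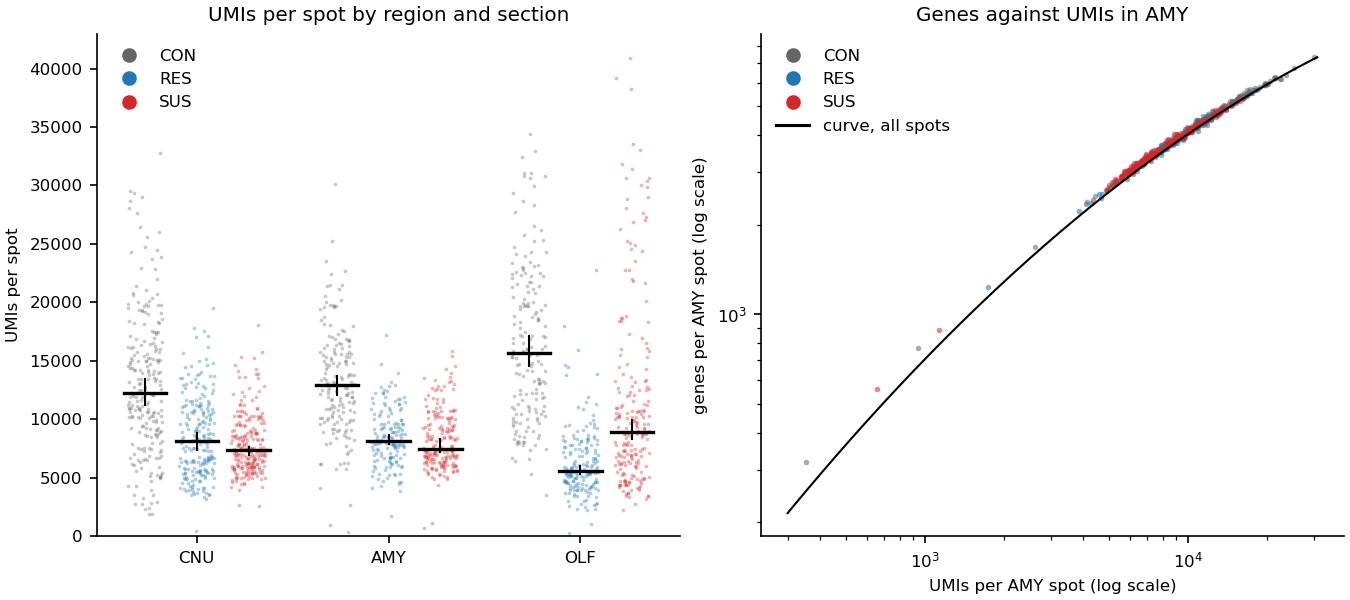
Left, UMIs per spot in CNU, AMY and OLF by section, with each point a spot, the bar the median and the line its 95% interval. Right, genes against UMIs for AMY spots on log axes with the curve set on all spots. The AMY medians are 12930 (CON), 8159 (RES) and 7471 (SUS) UMIs, and the AMY spots of all sections lie along 1 line just above the curve.

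Against CNU, which adjoins AMY on its medial side, UMIs were nearly equal within every section. The AMY to CNU ratio of medians was 1.06 (0.897 to 1.22) in CON, 1.01 (0.891 to 1.18) in RES and 1.01 (0.945 to 1.19) in SUS. Against OLF the ratio was 0.825 (0.705 to 0.943) in CON, 1.47 (1.32 to 1.62) in RES and 0.839 (0.729 to 0.992) in SUS. AMY was thus the poorer of the pair in CON and SUS and the richer in RES, where the OLF median was 5542 UMIs against 15669 in CON and 8906 in SUS. Over the 3 sections the OLF comparison had no common sign (exact two-sided sign-flip permutation test, p = 1). With 3 sections this test cannot give less than 0.25, which is the p for each comparison of one sign below, and 0.417 after Benjamini-Hochberg adjustment over the 10 comparisons.

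Counted in grid steps from each border, AMY medians ran over a narrower range than those of OLF in every section, most of all in CON and SUS. From the first to the fifth step inside AMY from the OLF border, median UMIs stayed between 12076 and 14192.5 in CON and between 6879.5 and 8051.5 in SUS. In RES they ran from 7742 to 8667.5 over the 4 steps that held at least 20 spots. Inside OLF they went from 14414.5 at the first step to 22824.5 at the fourth and 12877.5 at the fifth in CON. In SUS they went from 7875.5 to 21779 and then 6201. In RES the fourth step also had the highest median, but at 7870 (5443 to 9593) UMIs. At the first step on either side the AMY and OLF medians were 14192.5 and 14414.5 (CON), 7742 and 5469 (RES), and 6879.5 and 7875.5 (SUS). Across the CNU border no section showed a step: the first spots on either side had, AMY first, 12623 and 12600 UMIs (CON), 8710 and 8074 (RES), and 7248 and 7243.5 (SUS).

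**Figure D3:**
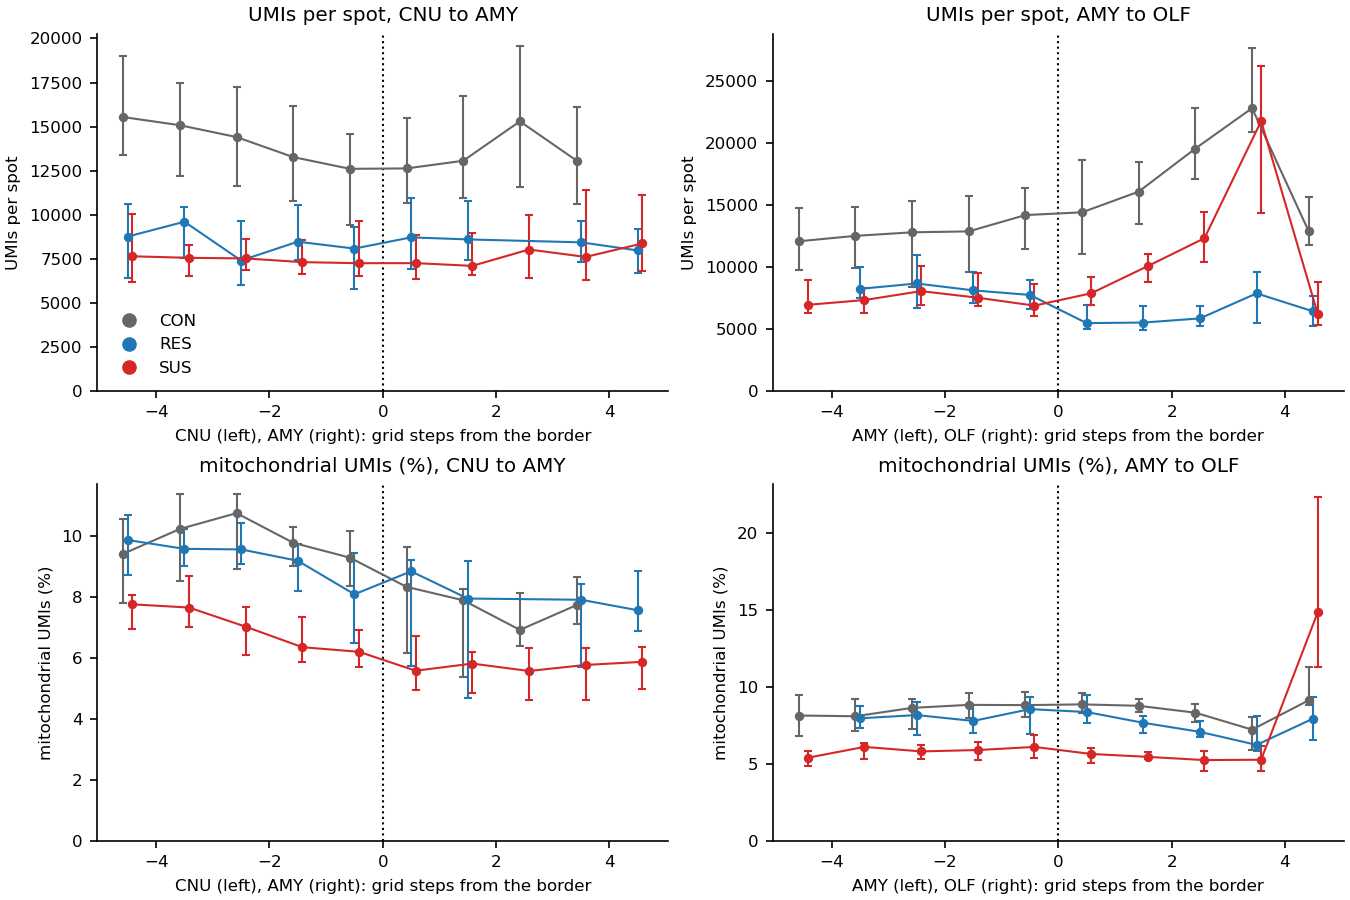
Median UMIs per spot (top) and mitochondrial percentage (bottom) by grid step from the CNU border (left) and the OLF border (right), with 95% intervals; the dotted line is the border, and steps with fewer than 20 spots are not drawn. UMIs differed little between the first steps on either side of the CNU border, and within OLF they were highest at the fourth step, where the CON median was 22824.5, the RES median 7870 and the SUS median 21779.

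The percentages were calculated by the authors over a total of UMIs larger than the deposited one. For every AMY spot a whole-number total was found at which all 3 percentages, as fractions matched within 1e-12, are whole numbers of UMIs, at 1.10 times the deposited total (median; 1.04 to 1.23 over spots). The smallest such total served for 487 spots, and a multiple of it for the rest. In every spot the excess over the deposited total covered the mitochondrial and red blood cell UMIs, with a remainder of 2.01% of the total (median; 0.270 to 4.55%). This remainder was smaller than the ribosomal protein UMIs in all 523 spots. By this reading the deposited UMIs leave out mitochondrial and red blood cell genes and keep ribosomal protein genes. Which genes the study listed in each class is not stated. On that larger total the UMI ratios were 0.638 for RES to CON and 0.573 for SUS to CON.

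The mitochondrial genome encodes subunits of the respiratory chain, and its transcripts are abundant in neuronal tissue. Mitochondrial UMIs made up 8.27% (8.01 to 8.52) of an AMY spot at the median in CON, 7.96% (7.52 to 8.18) in RES and 5.82% (5.59 to 6.01) in SUS. Single spots ran from 4.08 to 15.6% in CON, from 4.28 to 12.2% in RES and from 3.07 to 10.4% in SUS. The ratio was 0.963 (0.882 to 1.02) for RES to CON, 0.705 (0.656 to 0.750) for SUS to CON and 0.732 (0.683 to 0.800) for SUS to RES. In UMIs, the median spot held 1229 (CON), 681 (RES) or 486 (SUS). The SUS to CON ratio was below 1 in 6 of the other 7 larger regions too, from 0.639 in the Isocortex to 0.871 in the fiber tracts, and was 1.19 in the hypothalamus. Divided by the Isocortex median, the SUS to CON ratio of AMY turned to 1.10, and divided by the section median it was 0.919.

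Within every section AMY had the lowest mitochondrial median of the 8 larger regions, although its interval overlapped that of the next region each time. Of the smaller labels outside these 8, the entorhinal area was lower than AMY in RES, at 6.72% (5.83 to 7.44, 31 spots). It was lower in SUS too, at 5.15% (4.73 to 6.22, 30 spots), and higher in CON, at 8.63% (16 spots). The labels LV and D3V, with at most 14 spots per section, were lower in CON and RES and higher in SUS. Against CNU the AMY median was lower by 2.05 percentage points in CON (AMY minus CNU -2.05, -2.60 to -1.45). The difference was -1.54 (-2.23 to -1.05) in RES and -1.48 (-1.95 to -1.06) in SUS. Against OLF the differences of medians were -0.626 (-1.16 to -0.137), -0.177 (-1.08 to 0.396) and -0.306 (-1.03 to 0.173), and the last 2 intervals included 0. With means in place of medians the differences from OLF were -2.30, -4.33 and -5.21 in CON, RES and SUS, larger than those from CNU at -2.18, -2.17 and -1.90. Both comparisons had the same sign in 3 of 3 sections (exact permutation p = 0.25, adjusted 0.417). In medians, the sign against OLF did not hold in RES and SUS for other choices of spots. The difference turned to 0.225 and 0.126 without edge spots, to 0.555 and 0.190 with interior spots, and to 0.190 and 0.457 at the OLF border. Taking only spots on either side of the CNU border, the difference from CNU was -0.959 in CON and -0.621 in SUS, and turned to 0.753 in RES.

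Ribosomal protein genes encode the protein part of the ribosome. Their percentage was nearly the same in the AMY spots of all sections, at 7.08% (6.89 to 7.21) in CON, 6.97% (6.79 to 7.08) in RES and 6.95% (6.86 to 7.04) in SUS. The ratios were 0.984 (0.941 to 1.03), 0.982 (0.951 to 1.02) and 0.998 (0.968 to 1.04) for RES to CON, SUS to CON and SUS to RES, and all intervals included 1. Over whole regions the AMY median stood between those of its neighbours in each section. It was higher than OLF by 0.523, 0.403 and 0.700 percentage points in CON, RES and SUS. It was lower than CNU, with AMY minus CNU at -1.38, -0.724 and -1.23. None of these 6 intervals included 0, and each comparison had 1 sign in 3 of 3 sections (exact permutation p = 0.25, adjusted 0.417). At the borders alone the differences were smaller. Those from OLF were 0.0865 (CON), -0.193 (RES) and 0.407 (SUS), and those from CNU -0.135, -0.00706 and -0.505.

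Red blood cell genes, chiefly the globins, mark blood left in vessels or spread over a section. AMY spots had 0.0185% (0.0129 to 0.0218) red blood cell UMIs at the median in CON, 0.0701% (0.0627 to 0.0861) in RES and 0.229% (0.207 to 0.261) in SUS. The medians correspond to 2, 7 and 21 UMIs per spot. The ratio was 3.79 (2.87 to 6.66) for RES to CON, 12.4 (9.49 to 20.2) for SUS to CON and 3.27 (2.41 to 4.16) for SUS to RES. The CON level rests on so few UMIs per spot that spots were also pooled. Pooled AMY spots held 1033 red blood cell UMIs of 2454428 in CON (0.0421%), 4348 of 1457866 in RES (0.298%) and 7661 of 1793221 in SUS (0.427%), giving ratios of 7.09 for RES to CON, 10.2 for SUS to CON and 1.43 for SUS to RES. The first lies above and the last below the interval of its ratio of medians. No red blood cell UMI was seen in 22 AMY spots of CON, 1 of RES and 0 of SUS, although CON spots were the deepest.

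Few spots carried much of this signal. Spots of at least 1% numbered 1 (CON), 6 (RES) and 18 (SUS). They held 9.49%, 63.8% and 44.5% of the red blood cell UMIs of AMY. In RES these 6 spots lay apart from each other, and in SUS the 18 spots fell into 13 patches of at most 3 spots. Without these spots the ratios of medians were 3.68 for RES to CON, 11.6 for SUS to CON and 3.15 for SUS to RES. Over all spots, every SUS spot was above the upper quartile of CON, as were 81.9% of RES spots. The difference ran through whole sections. Ratios of medians in the other 7 larger regions ran from 15.2 to 23.5 for SUS to CON and from 4.16 to 8.53 for RES to CON. The order of regions depended on the measure. Of the 8 larger regions AMY had the lowest ratio of medians for RES to CON and SUS to CON, but OLF (2.52), the hypothalamus (2.77) and the fiber tracts (2.82) were below it for SUS to RES. The AMY intervals overlapped those of other regions, such as the Isocortex (3.55 to 4.75 for RES to CON, 15.8 to 21.9 for SUS to CON). In CON, where the level rests on 2 UMIs per spot, AMY had the highest median of the 8. The pooled RES to CON ratio of 7.09 was above those of OLF (5.14) and CNU (2.11). The pooled SUS to CON ratio of 10.2 lay between CNU (7.49) and OLF (11.9). These pooled ranks rest in part on the spots of at least 1%, and were not calculated without them. In CON such spots held 9.49% of the red blood cell UMIs in AMY, 58.2% in OLF and 57.4% in CNU. The shares were 63.8, 54.5 and 44.8% in RES, and 44.5, 70.2 and 55.5% in SUS. Divided by the section median, the AMY ratios of medians turned below 1, to 0.815 for RES to CON, 0.676 for SUS to CON and 0.830 for SUS to RES. The part of blood in the UMI differences was not tested.

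**Figure D4:**
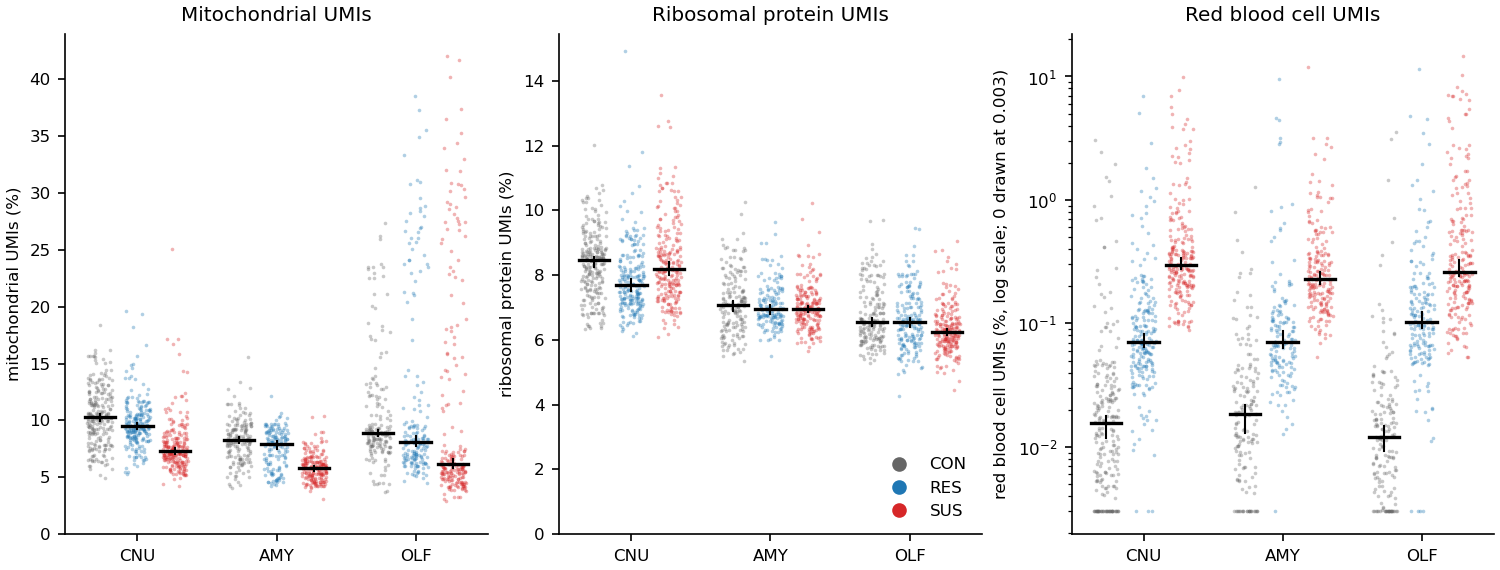
Percentages of mitochondrial, ribosomal protein and red blood cell UMIs per spot in CNU, AMY and OLF by section; points are spots, bars medians, lines 95% intervals, and the red blood cell axis is a log scale with 0 drawn at its foot. In AMY the mitochondrial medians are 8.27, 7.96 and 5.82%, the ribosomal protein medians 7.08, 6.97 and 6.95%, and the red blood cell medians 0.0185, 0.0701 and 0.229% in CON, RES and SUS.

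AMY was not uniform from dorsal to ventral. The spots of each section were split by grid row into a dorsal, a middle and a ventral part of equal size, after the values had been seen, so the split is a description. Mitochondrial percentages were lowest dorsally in every section. From dorsal to ventral the CON medians were 6.37, 9.16 and 8.83%. The RES medians were 5.59, 8.13 and 8.58%, and the SUS medians 4.84, 6.12 and 6.07%. The ventral to dorsal ratio was 1.39 (1.24 to 1.51) in CON, 1.54 (1.35 to 1.73) in RES and 1.26 (1.12 to 1.38) in SUS. Ribosomal protein percentages were highest dorsally in every section, with dorsal medians of 7.49, 7.44 and 7.14% and ventral medians of 6.84, 6.70 and 6.67%. Across spots, grid row (increasing ventrally) had a Spearman's rho with the mitochondrial percentage of 0.565 in CON (169 spots), 0.609 in RES (155 spots) and 0.393 in SUS (199 spots). These spots share a library and their neighbours, so no p is given.

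From dorsal to ventral the medians of CON were 11343, 12348.5 and 14803 UMIs. Those of RES were 7583.5, 8327 and 9064.5, and those of SUS 8253, 8266.5 and 7315. The ventral to dorsal ratio was 1.31 (1.11 to 1.54) in CON and 1.20 (1.03 to 1.43) in RES, and 0.886 (0.745 to 1.05) in SUS, where the interval included 1. With interior spots the SUS ratio turned to 1.03, beside 1.37 in CON and 1.22 in RES. The SUS to CON ratio of UMIs accordingly ran from 0.728 (0.586 to 0.898) dorsally to 0.494 (0.434 to 0.551) ventrally. For RES to CON it was 0.669 dorsally and 0.612 ventrally, with intervals that overlapped. Neighbouring AMY spots differed by 1.26-fold at the median in CON, 1.19-fold in RES and 1.21-fold in SUS, against 1.38-fold, 1.32-fold and 1.32-fold over all pairs of AMY spots.

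**Figure D5:**
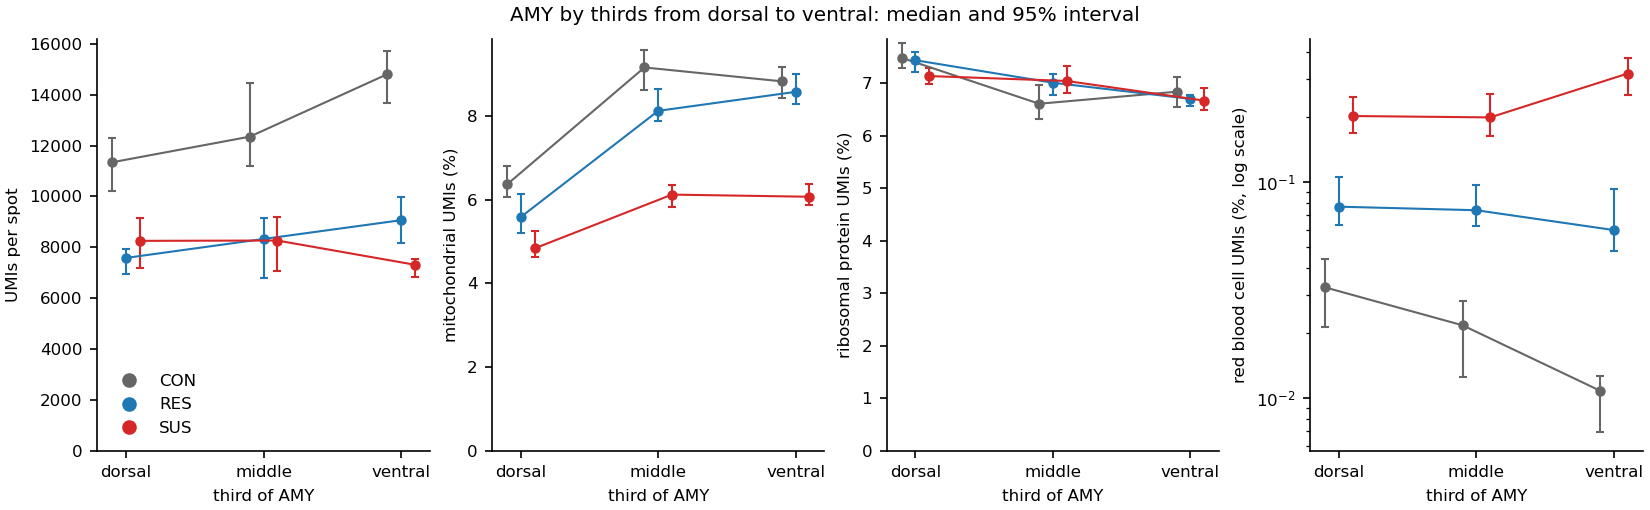
Medians with 95% intervals of UMIs, mitochondrial, ribosomal protein and red blood cell percentages for the dorsal, middle and ventral parts of AMY in each section; the red blood cell axis is a log scale. Mitochondrial percentages were lowest dorsally in all sections (6.37, 5.59 and 4.84%), ribosomal protein percentages highest dorsally, and UMIs were highest ventrally in CON and RES, while the SUS ratio of ventral to dorsal had an interval that included 1.

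The poorest AMY spots were single places surrounded by richer ones. The lowest CON spot had 352 UMIs and 318 genes, and its neighbours had a median of 11902 UMIs. The lowest SUS spot had 655 UMIs beside a median of 11099.5. Only 2 AMY spots of CON, 0 of RES and 1 of SUS fell under 1000 UMIs. The place at grid row 57 and column 105, which carries the same capture barcode each time, was AMY in all sections and low in each, with 2623, 1741 and 1133 UMIs in CON, RES and SUS. These were 16.8%, 28.3% and 15.8% of the median of their neighbours. Of 26 places that were AMY in all 3 sections this was the only one below 50% of its neighbours in each, and over all regions it was 1 of 6 such places among 2321.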

How the data were processed

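The authors sequenced Visium libraries of 3 sections, mapped reads to mm10 and read counts into Seurat. Their methods name ST Pipeline for the reads and also list Space Ranger 1.0.0, as do the submitters' processing notes; which one made the deposited totals was not settled. The deposited table gives the UMI count per spot, without normalization. Percent values for 3 gene classes were calculated by the authors. Columns of values matched to no sample numbered 0. Spots were joined to the deposited position lists by section and barcode, and neighbours are the 6 nearest grid places. Sections were grouped by the title in the labels, 1 per condition. Medians have order-statistic intervals, and a ratio's interval divides opposite bounds. AMY was compared with OLF and CNU within sections by an exact two-sided sign-flip permutation test over 3 sections. The intervals, the neighbour count and the recovery of totals were tested on simulated data. Alternatives changed the choice of spots, mean for median, the scaling, the UMI window and the denominator of shares. Members, lists and comparisons were chosen with earlier results of these data known. Counts per gene and image scale factors were not analysed here. Tools were pandas 2.3.3, numpy 2.4.6, scipy 1.17.1 (exact tests and intervals), matplotlib 3.10.9 (plots) and Python 3.11.15.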

Additional observations from a re-analysis of the deposited data

Results flagged for a closer look

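Red blood cell percentages ran in opposite directions within AMY in CON and SUS. The ventral to dorsal ratio of medians was 0.333 (0.159 to 0.589) in CON and 1.57 (1.01 to 2.22) in SUS, with 0.779 (0.458 to 1.47) in RES. The CON medians were 0.0324% dorsally and 0.0108% ventrally, and those of SUS 0.201% and 0.316%. The split was chosen after the values were seen, and the difference between sections was not tested, since each condition has 1 section.

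The AMY to OLF ratio of UMIs lay on both sides of 1. It was 1.47 in RES, against 0.825 in CON and 0.839 in SUS. The difference between sections was not tested. The OLF medians behind these ratios were 15669, 5542 and 8906 UMIs, against AMY medians of 12930, 8159 and 7471.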

How the results depend on the processing

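Of 333 alternatives, 45 took the largest patch and could not differ, since AMY is 1 patch, and 6 were shares with another denominator and had to. Of the other 282, 228 stayed within the interval of the reported value, 42 left it and 12 changed direction from a value whose interval did not include no difference. Of the 228 and the 42, 21 and 9 also crossed no difference, from values whose intervals included it. Dividing by the section median gave UMI ratios of 0.810 (RES to CON), gene ratios of 0.884 (RES to CON) and 0.909 (SUS to RES), mitochondrial ratios of 1.05, 0.919 and 0.879, and red blood cell ratios of 0.815, 0.676 and 0.830 (RES to CON, SUS to CON, SUS to RES). Dividing by the Isocortex median gave a gene ratio of 0.823 (RES to CON), mitochondrial ratios of 1.17, 1.10 and 0.940, and red blood cell ratios of 0.910, 0.662 and 0.728. Means in place of medians gave red blood cell ratios of 9.07 (SUS to CON) and 1.59 (SUS to RES) and an AMY to OLF UMI ratio of 0.717 in SUS. Spots of 5000 to 10000 UMIs gave 2.81 for red blood cells (RES to CON). For genes at matched UMIs, the next higher window gave 0.936 (SUS to CON) and 1.03 (SUS to RES), the window from 10000 to 15000 gave 0.944 (SUS to CON), and the curve gave 0.991, 1.005 and 1.01. Of tissue-covered spots AMY took 4.46, 4.01 and 5.25%, and of AMY, OLF and CNU spots 28.9, 27.9 and 30.7%. At the border the AMY to OLF UMI ratio was 0.985 in CON, the mitochondrial difference from CNU 0.753 in RES and the ribosomal protein difference from OLF -0.193 in RES, and interior spots gave 0.681 (AMY to OLF UMIs, SUS). Apart from the gene windows, whose sections differ in depth, the cause was not tested. No paired analysis between conditions was possible because each group has 1 section and the labels carry no replicate numbers. Leaving out a section would leave its condition without data. Red blood cell levels in CON rest on 2 UMIs per spot and are limited by depth.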

Other observations

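Within AMY, spots nearer to CNU and spots nearer to OLF had like numbers of UMIs. The medians were 12930 (71 spots) and 12670 (83 spots) in CON, and 8594.5 (70 spots) and 7898 (73 spots) in RES. In SUS they were 7539 (78 spots) and 7422 (104 spots). In CON the spots nearer to OLF had the higher mitochondrial percentage, at 8.77% (8.43 to 9.17) against 7.85% (6.92 to 8.27), and the lower ribosomal protein percentage, at 6.54% (6.39 to 6.85) against 7.31% (7.18 to 7.49). In RES the mitochondrial medians were 7.89% and 7.94% and the ribosomal protein medians 6.78% and 7.19%, nearer to OLF first. In SUS they were 6.01% and 5.59%, and 6.85% and 7.14%. This split was chosen after the values were seen.

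Across AMY spots, UMIs and the mitochondrial percentage had a Spearman's rho of -0.139 in CON (169 spots), 0.227 in RES (155 spots) and 0.0925 in SUS (199 spots). UMIs and the red blood cell percentage had rho of -0.240, -0.0415 and -0.254. All of these points share a library, and UMIs enter the denominator of each percentage.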
